A study of Saccharomyces cerevisiae with 29 samples.

Results

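Divergent gene pairs were taken from the annotation of L03, the reference genome sequence on which budding yeast (Saccharomyces cerevisiae) libraries of this study were to be placed. Genes with an mRNA were sorted by start on each chromosome, and a pair was divergent where the left gene lay on the minus strand, the right gene on the plus strand, and the 2 did not overlap. The region described is the gap between them. Of 5765 gaps between neighbouring genes that did not overlap, 1507 were divergent (26.1%), 2766 were tandem, with both genes on the same strand, and 1492 were convergent, with the 3′ ends facing. All 5859 gene rows ran over exactly the coding sequence, so a divergent gap runs from start codon to start codon and holds both 5′ untranslated regions as well as both promoters. The choice used only strand and position, and gap length, gene names and gap contents were not part of it.

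The study made 29 libraries by HydEn-seq, in which alkali cuts genomic DNA at ribonucleotides and the DNA ends that result are sequenced. They came from 14 strains grown to mid log phase, which are 7 DNA polymerase backgrounds, each with RNH201 or with rnh201-delta, the deletion of the gene for the catalytic subunit of RNase H2. With rnh201-delta, the backgrounds were pol2-M644G (4 libraries), pol2-M644L (2), pol3-L612G (2), pol3-L612M (2), pol1-Y869A (3), pol1-L868M (1) and wild-type polymerases (2). With RNH201, they were pol2-M644G (3), pol2-M644L (2), pol3-L612G (2), pol3-L612M (1), pol1-Y869A (2), pol1-L868M (1) and WT (2). The sequenced ends themselves are not part of what follows, so no value below belongs to a strain and no depth applies. All coordinates are on L03.

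In a divergent pair the promoters of both genes lie in a single stretch of DNA, and yeast promoters have a nucleosome-depleted region upstream of each transcription start. Such a stretch may hold binding sites that serve both genes, as in the textbook case of the galactose genes GAL1 and GAL10, or separate promoters placed back to back. Intergenic DNA also holds most replication origins, where the bound origin recognition complex loads the replicative helicase. It also holds tRNA genes, near which most Ty retrotransposons insert and leave long terminal repeats (LTRs).

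Divergent gaps were longer than gaps of the other orientations. Their median length was 545 bp, with a 95% interval of 505 to 567 bp from order statistics, against 405 bp (394 to 419) for tandem gaps and 230 bp (218 to 240) for convergent gaps. The middle 50% of divergent gaps ran from 298.5 to 844.5 bp, and the longest reached 9151 bp. Divergent gaps were 26.1% of the gaps and held 34.0% of the gap length. Each annotated sequence is a single copy with no replicate, so the order was compared over chromosomes and not tested. The divergent median lay above the tandem median on 15 of 16 chromosomes and above the convergent median on 16 of 16. The exception was chromosome III, at 381.5 bp for 40 divergent gaps and 387 bp for 74 tandem gaps. Chromosome medians of divergent gaps ran up to 640 bp, on chromosome VI.

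The lengths of divergent gaps formed a narrow peak followed by a shelf. Each range of lengths below includes its lower limit and not its upper. The fullest window of 50 bp was 250 to 300 bp, with 161 divergent gaps (10.7%). Each of the 8 windows of 50 bp between 350 and 750 bp held 61 to 81 gaps, and between 750 and 1000 bp the windows held 20 to 54. Tandem gaps had their fullest window at the same length, with 324 gaps (11.7%), but their windows held 275 at 350 to 400 bp and 65 at 700 to 750 bp. Between 600 and 700 bp lay 145 divergent gaps (9.62%), 157 tandem gaps (5.68%) and 33 convergent gaps (2.21%). With only pairs in which both genes had a standard name, the share at 600 to 700 bp was 9.78% of 1012 divergent pairs, against 5.85% of 1845 tandem pairs.

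**Figure D1:**
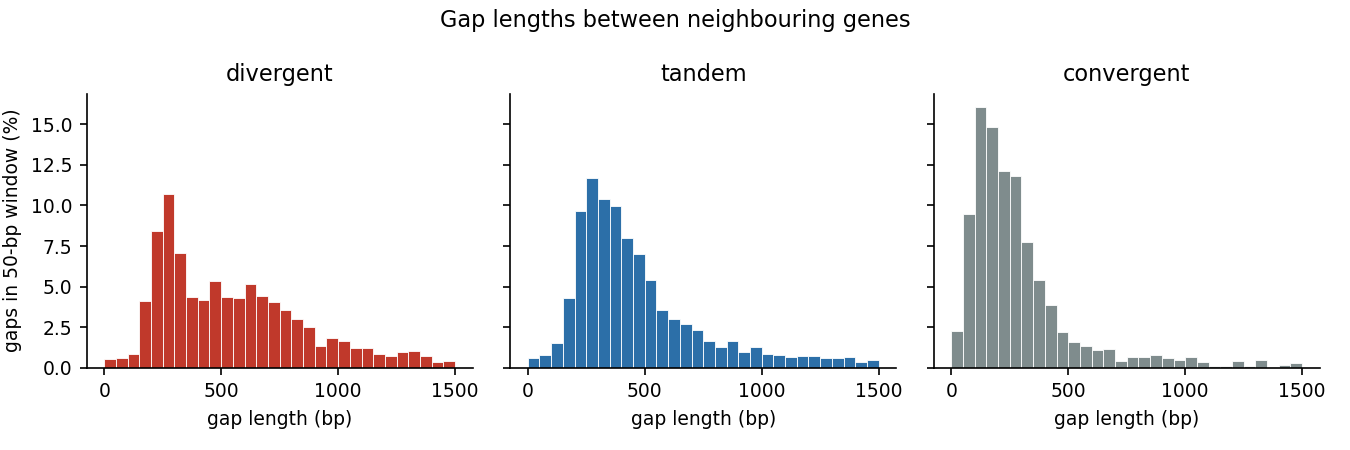
Percentage of divergent, tandem and convergent gaps (y axis) in each 50-bp window of gap length (x axis, bp), up to 1500 bp. Divergent gaps peak at 250 to 300 bp (161 gaps) and stay at 61 to 81 gaps per window from 350 to 750 bp, where tandem gaps fall.

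Divergent starts were common among genes. Of 5859 genes, 3014 (51.4%) had a divergent neighbour at the 5′ side, and no gene was in more than 1 such pair. Both genes had a standard name in 1012 pairs, 1 had in 440, and neither had in 55. In this annotation, the 4727 genes with a standard name are the same genes that carry a qualifier of experimental evidence. A further 7 divergent pairs were left out because the genes overlapped, by 37 bp (YJR012C and GPI14) to 518 bp (MTO1 and YGL235W). The others were YDL119C with YDL118W, YDR114C with YDR115W, EMI1 with GRX2, YEL067C with HPA3, and BUD25 with FAA2.

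In 9 of the 10 shortest gaps at least 1 of the genes had no standard name in this annotation. YDR366C and YDR367W were 11 bp apart (chrIV:1212741-1212751), and YGL193C lay 18 bp from IME4, the mRNA methyltransferase gene of meiosis (chrVII:142229-142246). Next came YKL096C-B and the cell wall mannoprotein gene CWP2 at 30 bp, then ALP1, a basic amino acid transporter gene, and BSC4 at 37 bp. YGR204C-A and YGR205W were 38 bp apart, the glycogenin gene GLG2 and YJL136W-A 41 bp, YLL007C and YLL006W-A 45 bp, and CUE4 and YML100W-A 49 bp. ISW1, which encodes a chromatin remodelling ATPase, lay 51 bp from YBR246W, and YBL059C-A lay 54 bp from YBL059W. Several of these genes do have names in the RefSeq gene table of the reference genome. There YDR366C and YDR367W are MOR1 and KEI1, and YBL059C-A and YBL059W are CMC2 and IAI11. YBR246W is RRT2, YGR205W is TDA10 and YLL007C is LMO1. Of these 10 pairs, 5 had a gene under 300 bp. In the L03 annotation, ALP1 with BSC4 was the pair with standard names for both genes. Among all 92 divergent gaps under 200 bp, 26.1% had a gene under 300 bp, against 8.68% of the 461 gaps of 200 to 400 bp. Both genes had a standard name in 55.4% of the gaps under 200 bp and in 71.1% of those of 200 to 400 bp.

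The 10 longest gaps differed in what they held, and 2 of them held no annotated feature. An annotated feature here is an origin, tRNA gene, LTR, noncoding RNA, rRNA, pseudogene, recombination feature or labelled region, and other types were not looked for. Of all divergent gaps of 2000 bp and over, 44.4% held none. HXK1, a hexokinase gene, and IRC7 were 9151 bp apart (chrVI:255053-264203), with the origin ARS609. YGR038C-A and the MAP kinase gene KSS1 were 7930 bp apart, with ARS721, ARS722 and 2 delta LTRs wholly inside. The gap of 7781 bp between YAL064C-A and YAL064W, near an end of chromosome I, held no annotated feature, and neither did that of 4438 bp between OPT2 and YPR196W on chromosome XVI. RNH203 and TAR1 were 6381 bp apart (chrXII:448224-454604), and this gap held a tRNA gene, a delta LTR, the origin ARS1216 and part of the ribosomal DNA. YEL073C and RMD6 were 6166 bp apart with ARS504. The 6069 bp between YPL277C and SAM3 held the pseudogenes YPL276W and FDH2. The 4852 bp between DPS1 and BPT1 held the pseudogenes YLL017W and SDC25. YAR023C and UIP3 were 3948 bp apart with 2 tRNA genes and 2 LTRs.

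The gap of 3929 bp between FRM2 and KCC4 on chromosome III (chrIII:75114-79042) spans an edited locus. AGP1, an amino acid permease gene, lies in it over 1956 bp as a region with no mRNA row and carries a URA3 insert of 1234 bp, so the rule passed over it. In the RefSeq gene table of the reference genome, AGP1 stands between FRM2 and KCC4. Both genes were found in that table for 1505 of the 1507 pairs. For 1437 of these they were neighbours there too, and for 68 at least 1 other reading frame of the table lay between them. These included YFR054C between HXK1 and IRC7, YGR039W between YGR038C-A and KSS1, and YPR195C between OPT2 and YPR196W. Another was YBR209W between DUR1,2 and ERV15, a gap described below for its tRNA genes and LTRs. Over the 1437 pairs that were neighbours in both, the median gap was 515 bp, an alternative that was not planned. Of the 10 longest gaps, 5 lay within 25 kb of a chromosome end. The 75 divergent gaps that close to an end had a median of 1016 bp, against 525 bp for those elsewhere.

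**Figure D2:**
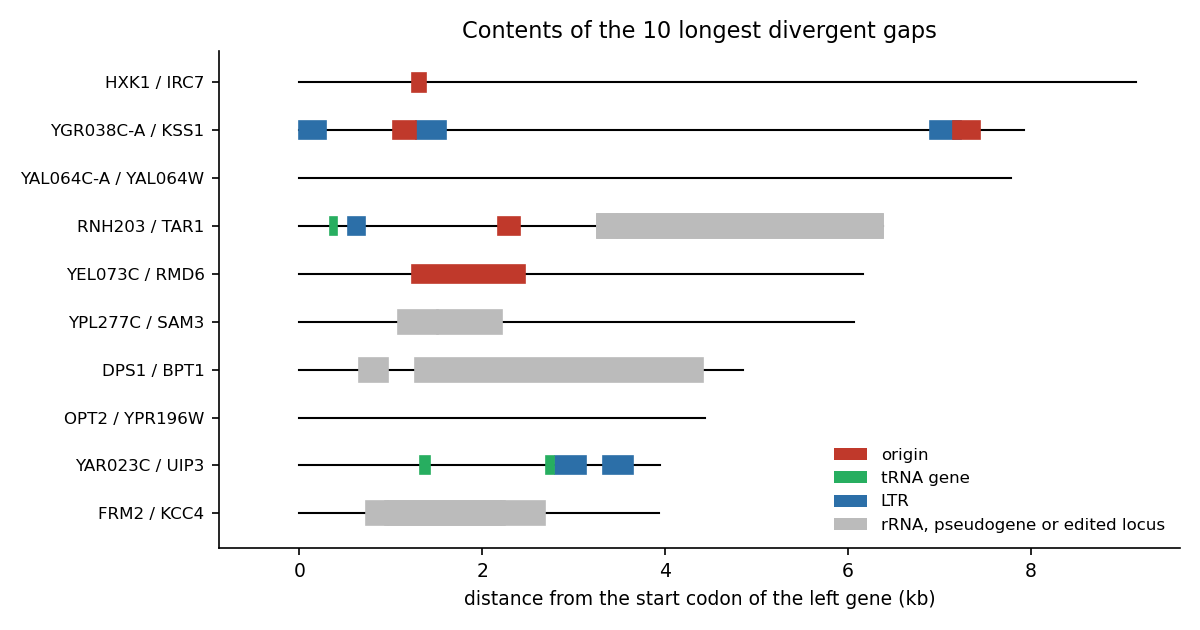
The 10 longest divergent gaps drawn to scale from the start codon of the left gene (x axis, kb), with origins, tRNA genes, LTRs and other annotated features as boxes cut at the gap's edge. The gaps run from 3929 bp (FRM2 and KCC4) to 9151 bp (HXK1 and IRC7), and 2 hold no annotated feature.

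Divergent gaps held an origin less often than the other orientations did, in every class of gap length. An origin midpoint lay in 46 of 1507 divergent gaps (3.05%, exact Clopper-Pearson 95% interval 2.24 to 4.05), against 123 tandem gaps (4.45%, 3.71 to 5.28) and 86 convergent gaps (5.76%, 4.64 to 7.07). Over all gaps the share was 4.42%. These intervals cover counting error only, and neighbouring features are not independent. No origin lay in the 553 divergent gaps under 400 bp, a count of 0 that allows a share of up to 0.542% when the limit is set at 3 counts of the total, and of up to 0.665% by the exact interval, whereas 25 of 1353 tandem gaps (1.85%) and 38 of 1190 convergent gaps (3.19%) of that length held one. At 400 to 600 bp the share was 0.364% of 275 divergent gaps, against 3.02% of tandem and 11.9% of convergent gaps. At 600 to 1000 bp it was 3.32%, against 6.81% and 14.9%. At 1000 to 2000 bp it was 7.25%, against 10.4% and 14.3%, and at 2000 bp and over it was 21.0%, against 27.3% and 45.8%. The divergent share was the lowest in all 6 length classes. At 200 to 400 bp the divergent interval, up to 0.797%, lay below the tandem interval, from 1.34%, and the convergent one, from 3.83%. Under 200 bp and from 1000 bp on, the intervals of the 3 orientations overlapped. At 400 to 600 bp the divergent interval, up to 2.01%, overlapped the tandem one, from 1.85%. At 600 to 1000 bp it reached 5.62% and overlapped the tandem one, from 4.57%. In both of these classes the divergent interval lay below the convergent one. Over all lengths, the divergent and tandem intervals overlapped as well. These differences were not tested.

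The difference was larger at matched gap length than in the totals. With the tandem share of each length class applied to the divergent gaps, 88.5 of them would hold an origin, and with the convergent shares 185, against the 46 counted. Per 100 kb of gap, divergent gaps had 4.21 origins, tandem gaps 7.54 and convergent gaps 16.9. By chromosome, the divergent share lay below the tandem share on 12 of 16 and below the convergent share on 10 of 16, with 1 tie.

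The 10 shortest divergent gaps with an origin ran from 475 to 769 bp. ECM18 and SWF1, a palmitoyltransferase gene, were 475 bp apart with ARS422 (chrIV:702660-703134). YBR241C and YBR242W were 614 bp apart with ARS222, YNL211C and the meiotic splicing gene MER1 616 bp with ARS1413, and AIM13 and YFR012W 629 bp with ARS606 and a tRNA gene. JLP2 and the meiotic recombination gene REC114 were 636 bp apart with ARS1320. Subunit genes of nuclear RNA polymerases bordered 2 more, namely RPC34 with YNR004W (645 bp, ARS1426) and YNL115C with RPC19 (717 bp, ARS1417). The last were MPE1 with TOA2 (722 bp, ARS1109), GUP1 with SCY1 (759 bp, ARS716) and YNL254C with TEX1 (769 bp, ARS1411). Gaps with an origin had a median of 1536 bp in the divergent orientation, 781 bp in the tandem and 427.5 bp in the convergent.

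Origins in tandem gaps mostly lay on the side away from the start codon. In the 124 cases the median distance from the origin's edge was 80.5 bp to the 3′ end of the upstream gene and 362.5 bp to the start codon of the downstream gene, and 87 lay nearer the 3′ end. A divergent gap has no 3′ end, and its 47 origins had a median distance of 299 bp to the nearer start codon. Of these, 8 came within 100 bp of a start codon or reached into a coding sequence, and that count includes ARS606, which overlapped its neighbour by 161 bp.

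For tRNA genes, the order of the totals and the order within length classes differed. Of 1507 divergent gaps, 90 held a whole tRNA gene (5.97%, interval 4.83 to 7.29), against 120 tandem gaps (4.34%, 3.61 to 5.17) and 43 convergent gaps (2.88%, 2.09 to 3.86). The share of all gaps was 4.39%. The divergent share was the higher on 12 of 16 chromosomes against tandem and on 14 of 16 against convergent, with 1 tie. Within length classes from 600 bp the order ran the other way. At 600 to 1000 bp the share was 6.14% of divergent gaps, against 6.57% of tandem and 12.6% of convergent gaps. At 1000 to 2000 bp it was 19.3%, against 22.7% and 26.8%, and at 2000 bp and over 27.2%, against 34.1% and 54.2%. The intervals of divergent and tandem gaps overlapped in each of these classes. With class shares of tandem gaps, 103 divergent gaps would hold a tRNA gene, and with those of convergent gaps 157, against the 90 counted. Below 600 bp only 4 divergent gaps held a tRNA gene, the shortest being the 373 bp between YIL014C-A and MNT3.

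Few of the 95 tRNA genes in divergent gaps lay within 100 bp of a start codon. Their median distance to the nearer start codon was 323 bp, and 1 of 95 came within 100 bp, at 19 bp, in the gap of YIL014C-A and MNT3. In tandem gaps 1 of 128 came within 100 bp. Within 200 bp lay 21 of the 95 in divergent gaps, against 18 of 128 in tandem gaps, where the median distance was 625 bp. A divergent gap has a start codon at both ends and a tandem gap at only 1. The annotation has 275 tRNA genes in all. Among the 95 in divergent gaps, genes for serine and leucine tRNAs were the most frequent, at 9 each. The annotation has 18 serine and 21 leucine tRNA genes. None of its 7 histidine tRNA genes was among the 95, and differences between the families were not tested.

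LTRs lay in longer gaps still. A whole LTR lay in 55 divergent gaps (3.65%, interval 2.76 to 4.72), 99 tandem gaps (3.58%, 2.92 to 4.34) and 49 convergent gaps (3.28%, 2.44 to 4.32), and in 3.52% of all gaps, so the totals were close to the background. None of the 828 divergent gaps under 600 bp held a whole LTR, and the shortest divergent gap with an LTR was 621 bp. This count of 0 allows a share of up to 0.362% at 3 counts of the total and 0.445% by the exact interval. The counting rule sets part of it. LTRs in divergent gaps had a median length of 316.5 bp, and a gap shorter than that cannot hold 1 of that length whole. At 600 to 1000 bp the share was 1.28% of divergent gaps, against 3.65% of tandem and 12.6% of convergent gaps. At 1000 to 2000 bp it was 14.0%, against 20.3% and 37.5%, and at 2000 bp and over 25.9%, against 36.4% and 62.5%. In each of these classes the divergent interval overlapped the tandem one and lay below the convergent one. The differences were not tested. Of the 84 LTRs in divergent gaps, 62 were delta elements, which belong to Ty1 and Ty2. A further 15 were sigma elements of Ty3, 6 were tau elements of Ty4 and 1 was an omega element of Ty5. Delta elements were also the most frequent in the whole annotation. Its 381 LTRs were 296 delta, 42 sigma, 35 tau and 8 omega elements. A tRNA gene lay in 45 of the 55 divergent gaps with an LTR (81.8%), in 78 of 99 tandem (78.8%) and in 30 of 49 convergent gaps (61.2%). Read from the tRNA side, 45 of 90 divergent gaps with a tRNA gene also held an LTR, against 78 of 120 tandem and 30 of 43 convergent gaps.

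**Figure D3:**
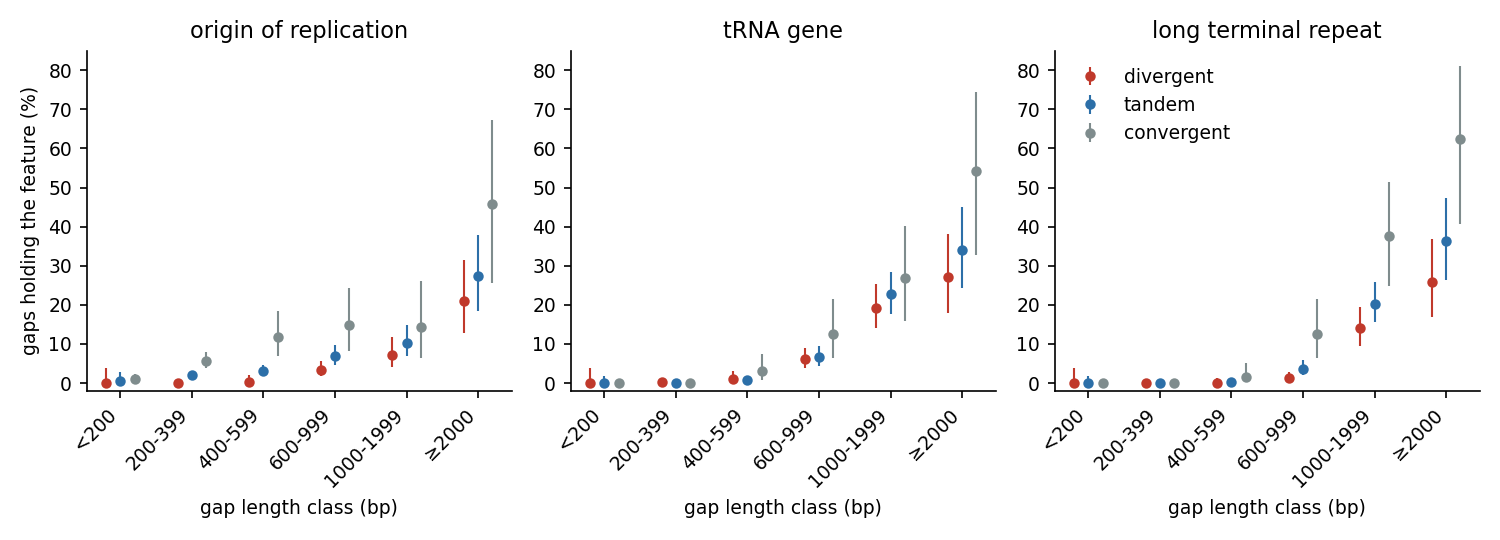
Percentage of gaps that hold an origin midpoint, a whole tRNA gene or a whole LTR (y axis) by class of gap length (x axis, bp), for divergent, tandem and convergent gaps. Points are shares and bars exact 95% intervals; divergent origin shares are the lowest in all 6 classes, from 0% under 400 bp to 21.0% at 2000 bp and over.

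By tRNA genes and LTRs together, the fullest 3 divergent gaps held 2 tRNA genes and 3 LTRs each. They were SRD1 with MAK32 (1701 bp, chrIII:146964-148664), THI20 with PSH1 (2538 bp, chrXV:224124-226661) and DUR1,2, the urea amidolyase gene, with ERV15 (3339 bp, chrII:642178-645516). A further 5 gaps held 4 each, namely YAR023C with UIP3, the chaperone gene CAJ1 with ISD11 (2560 bp), YMR118C with ASI1 (2598 bp), THI21 with YPL257W-A (1594 bp) and CLB5, a cyclin gene, with THI22 (3400 bp), which also held an origin. Across divergent gaps, the share with an origin, a tRNA gene or an LTR was 0% of 92 under 200 bp, 0.217% at 200 to 400 bp, 1.45% at 400 to 600 bp, 9.46% at 600 to 1000 bp, 27.5% at 1000 to 2000 bp and 46.9% at 2000 bp and over. In all, 137 of 1507 divergent gaps (9.09%) held any of the 3.

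Pairs with related names or functions were few, and they include well known regulatory units. In 14 divergent pairs (0.929%, interval 0.509 to 1.55) both names had the same letters before the number, against 32 tandem pairs (1.16%, 0.793 to 1.63) and 11 convergent pairs (0.737%, 0.369 to 1.32). Over all neighbours the share was 0.989%, so shared names were about as frequent in divergent pairs as in any. On 20 lists of genes of a pathway or complex, 21 divergent pairs (1.39%, 0.865 to 2.12) had both genes on the same list, against 18 tandem pairs (0.651%, 0.386 to 1.03) and 5 convergent pairs (0.335%, 0.109 to 0.780), and 0.763% of all neighbours did. The lists were written with such pairs known from general knowledge, so this count is a description of those lists. Together, names and lists gave 25 divergent pairs, with gaps of 221 to 1581 bp.

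All 4 neighbour pairs within the histone list were divergent. HTA2 and HTB2, for histones H2A and H2B, were 699 bp apart (chrII:235774-236472), and their copies HTB1 and HTA1 817 bp (chrIV:914615-915431). HHF1 and HHT1, for histones H4 and H3, were 646 bp apart (chrII:255666-256311), and HHT2 and HHF2 676 bp (chrXIV:576007-576682). The order of the genes is turned between the copies of each pair. HHO1, for the linker histone, and HTZ1, for the variant H2A.Z, were divergent from other genes, namely NAN1 at 605 bp and PLB3 at 1365 bp. In all, 10 of 11 histone genes had a divergent neighbour, against 51.4% of all genes, and 8 of the 10 were in the 4 pairs above.

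Genes of nutrient use and vitamin synthesis formed the next group. GAL10 and GAL1, for the epimerase and the kinase of galactose use, were 668 bp apart (chrII:278332-278999). MAL11 and MAL12, for a maltose permease and a maltase, were 785 bp apart (chrVII:1075735-1076519). Nearby on chromosome VII, YGR287C, an isomaltase gene named IMA1 in the RefSeq table, and the regulator gene MAL13 were 1301 bp apart. At the other maltose locus, on chromosome II, the reading frame YBR298C-A stood between the permease and maltase genes, 94 bp from MAL32, so that locus gave no listed pair. DAL1 and DAL4, for allantoinase and the allantoin permease, were 825 bp apart (chrIX:406836-407660). BIO4 and BIO3, of biotin synthesis, were 221 bp apart (chrXIV:734026-734246), the shortest gap of the 25. The 3 copies of the vitamin B6 genes SNO and SNZ, which encode the glutaminase and synthase partners, had gaps of 390 bp (SNO2 and SNZ2), 393 bp (SNO3 and SNZ3) and 448 bp (SNO1 and SNZ1). ARR2 and ARR3, the arsenate reductase and arsenite exporter genes, were 250 bp apart (chrXVI:939664-939913).

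The mating type genes had the same gap at HML and MAT. MATALPHA2 and MATALPHA1, for the repressor and the activator of the alpha cell type, were 263 bp apart (chrIII:196008-196270), as were HMLALPHA2 and HMLALPHA1 (chrIII:12845-13107). HMRA2 and HMRA1 were 296 bp apart (chrIII:289369-289664). The 6 mating type genes found form these 3 pairs, and 51.4% of all genes were in a divergent pair. The MAT locus of L03 is annotated with the alpha genes.

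Of the cytoplasmic ribosomal protein genes, 4 divergent pairs had both genes on the list, as did 4 tandem pairs and 1 convergent pair. RPS15 and RPP2A, 719 bp apart, were not counted because RPP2A was not on the list, so these counts depend on how the list was drawn. RPS22A and RPL39 were 630 bp apart (chrX:75304-75933) and RPL24A and RPL30 1156 bp (chrVII:437924-439079). The paralogous pairs RPS16B with RPL13A and RPL13B with RPS16A had gaps of 634 bp (chrIV:307729-308362) and 720 bp (chrXIII:551202-551921), with the gene order turned. RPA43 and RPA190, for subunits of RNA polymerase I, were 804 bp apart (chrXV:958224-959027). The remaining pairs with a shared name stem were DIT2 with DIT1, of the dityrosine layer of the spore wall (898 bp), the cell wall genes PIR1 and PIR3 (1581 bp), the sporulation genes SPS18 and SPS19 (300 bp), and YSC84 with YSC83 (238 bp), which share a name but no list.

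No origin, tRNA gene or LTR lay in any of these 25 gaps. A count of 0 of 25 allows a share of up to 12% at 3 counts of the total and 13.7% by the exact interval, both above the 9.09% of all divergent gaps, so no difference was detectable with so few. By length, 9 of the 25 lay at 200 to 400 bp, 1 at 400 to 600 bp, 12 at 600 to 1000 bp and 3 at 1000 to 2000 bp.

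**Figure D4:**
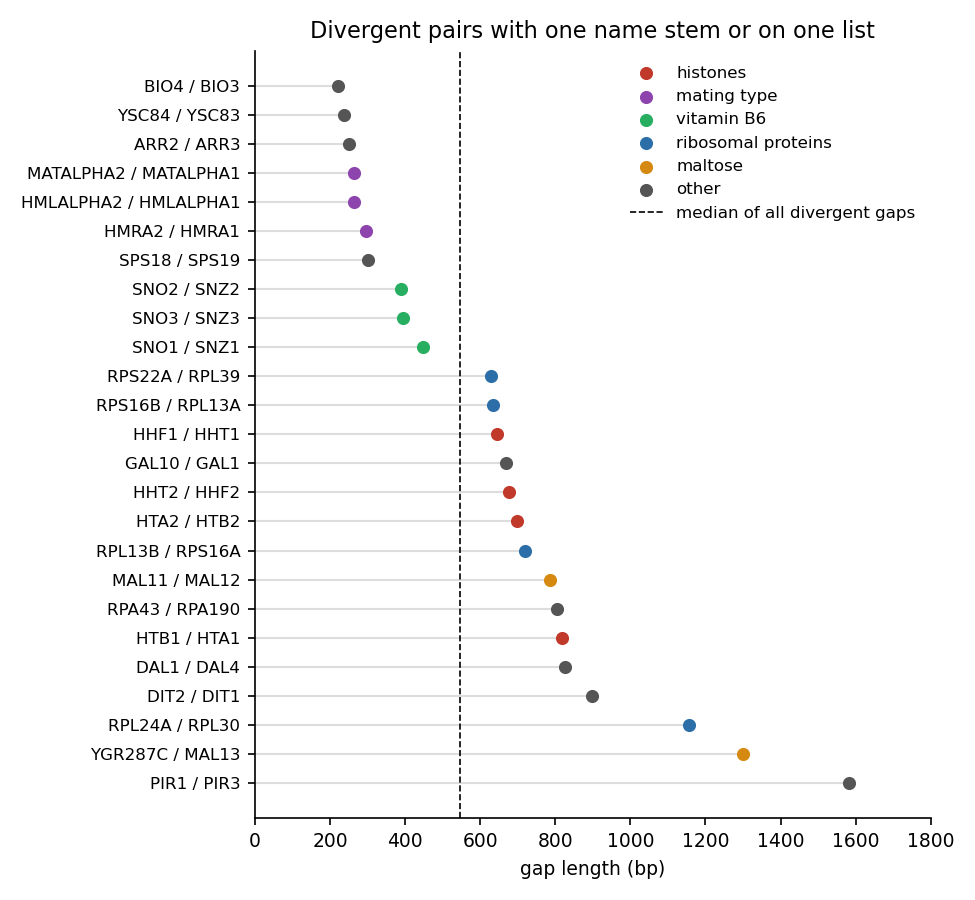
Gap length (x axis, bp) of the 25 divergent pairs with a shared name stem or both genes on the same list, 1 point per pair, coloured by list, with the median of all divergent gaps (545 bp) as a dashed line. Gaps run from 221 bp (BIO4 and BIO3) to 1581 bp (PIR1 and PIR3), and 10 lie below the median and 15 above.

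Some divergent pairs recurred as paralogous copies with other names. Among pairs with 2 named genes, 13 combinations of different name stems occurred in more than 1 divergent gap, which made 28 of 1012 gaps (2.77%), against 45 of 1845 tandem gaps (2.44%) and 20 of 1029 convergent gaps (1.94%). These combinations were picked out after their values were seen. Myosin genes and FRT genes faced each other at MYO4 and FRT2 (629 bp) and at FRT1 and MYO2 (680 bp). Nuclear basket genes and ubiquitin fusion ribosomal protein genes did so at MLP2 and RPL40A (640 bp) and at RPL40B and MLP1 (1052 bp). Chitin synthase genes and copper chaperone genes did so at CHS3 and SCO2 (1519 bp) and at SCO1 and CHS2 (445 bp), both on chromosome II. PKH1 with IZH1 had 655 bp and IZH4 with PKH2 1316 bp. Several combinations lay near chromosome ends. HXT15 with THI13 and THI11 with HXT16 both had 2843 bp and 1 origin, PAU14 with VTH1 and PAU1 with VTH2 both had 2336 bp, and HSP33 with ERR1 and ERR2 with HSP32 had 1017 and 1016 bp. COS6 with YRF1-3 had 2134 bp and YRF1-6 with COS1 had 2231 bp. The pairing of BUD with SEC genes, at 2129 and 233 bp, joins names given by phenotype.

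The length of the divergent gap differed between lists of the genes beside it, and these differences were not tested. Genes of DNA replication bordered 34 divergent gaps with a median of 408 bp and quartiles of 270.5 and 667.75 bp, and no gap held an origin, a tRNA gene or an LTR. A count of 0 of 34 allows a share of up to 8.82% at 3 counts of the total and 10.3% by the exact interval, close to the 9.09% of all divergent gaps. These gaps were also short, with 16 of the 34 under 400 bp and the longest at 1207 bp. Among all divergent gaps, 0.217% of those of 200 to 400 bp held any of the 3 features. That share was 1.45% at 400 to 600 bp and 9.46% at 600 to 1000 bp. Proteasome genes bordered 22 gaps with a median of 376 bp, and mitochondrial ribosomal protein genes 46 gaps with a median of 366 bp. Cytoplasmic ribosomal protein genes bordered 70 gaps with a median of 790.5 bp and quartiles of 587 and 1096.5 bp, and only 5 of these were under 400 bp, against 25 of the 46 gaps of mitochondrial ribosomal protein genes. The median of all 1507 divergent gaps was 545 bp. The largest median was that of glycolysis genes, at 1557 bp over 7 gaps. Of the 7 glycolysis gaps, 4 held an origin, against 3.05% of all divergent gaps and 21.0% of those of 2000 bp and over. They were TDH2 with MET3 (1557 bp, ARS1016), PUP2 with ENO1 (1786 bp, ARS734), CYC3 with the pyruvate kinase gene CDC19 (2260 bp, ARS106) and HXK1 with IRC7. The other 3 were YJL052C-A with TDH1 (266 bp), ADP1 with PGK1 (872 bp) and PFK2 with YMR206W (1127 bp). None of the 22 proteasome, 34 replication and 46 mitochondrial ribosomal protein gaps had both genes on the same list. Over all 1507 divergent pairs that share was only 1.39%, so counts of 0 in so few gaps show no difference.

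**Figure D5:**
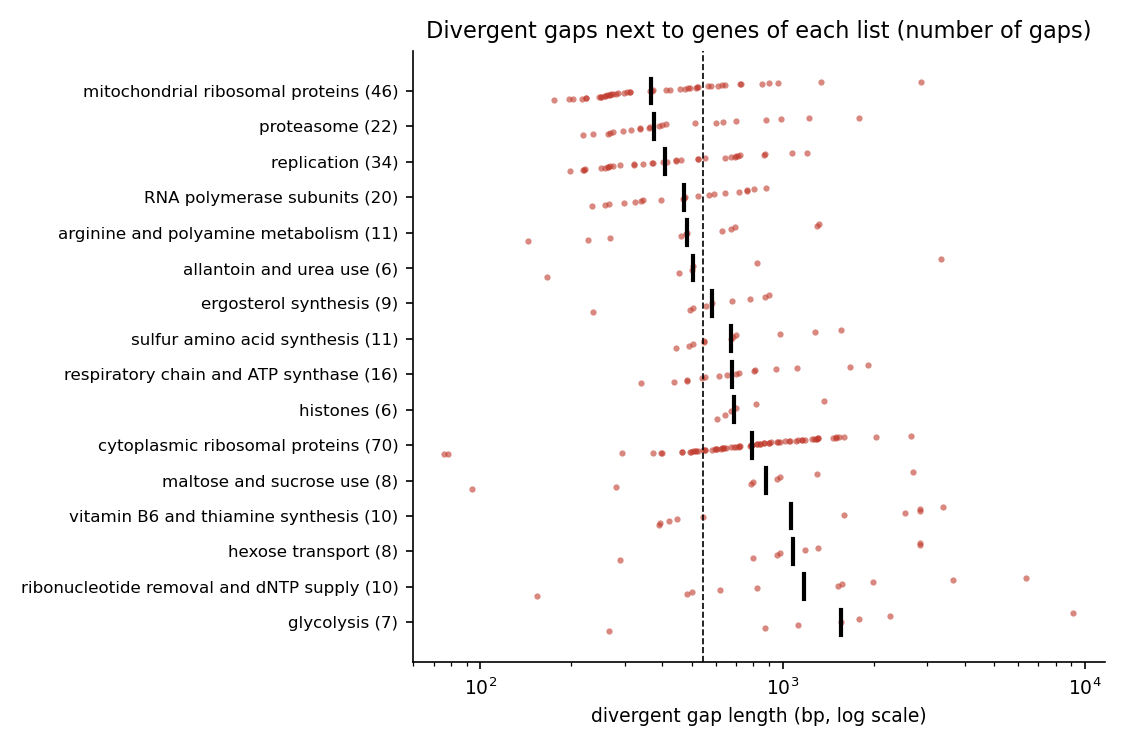
Lengths of divergent gaps (x axis, bp, log scale) next to genes of each list with at least 5 such gaps, 1 point per gap, with list medians as bars and the median of all divergent gaps (545 bp) as a dashed line. List medians run from 366 bp for mitochondrial ribosomal protein genes to 1557 bp for glycolysis genes; a gap between genes of different lists appears in both.

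Of the genes altered in the strains, 2 of 4 were in divergent pairs, near the 51.4% of all genes. POL3, which encodes the polymerising subunit of DNA polymerase delta, lay 290 bp from QRI1 (chrIV:276521-276810). POL2, for that of DNA polymerase epsilon, lay 371 bp from YIF1 (chrXIV:147793-148163). POL1, for that of DNA polymerase alpha, had MET4 as a tandem upstream neighbour at 333 bp, and RNH201 had MSK1 at 200 bp. None of these 4 gaps held an origin. The genes of the other RNase H2 subunits, picked after their values were seen, bordered long divergent gaps with an origin and a tRNA gene. These gaps were 3665 bp between MTH1 and RNH202 (chrIV:1015606-1019270, ARS430) and 6381 bp between RNH203 and TAR1. The latter also holds part of the ribosomal DNA. Of all 1507 divergent gaps, 8 held both an origin and a tRNA gene. Genes of ribonucleotide removal and dNTP supply as a list bordered 10 divergent gaps with a median of 1174 bp, from 154 bp (YJL027C and RNR2) to 6381 bp, and 5 of the 10 held a tRNA gene, against 5.97% of all divergent gaps and 19.3% of those of 1000 to 2000 bp.

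Shared annotation of function could be counted on chromosome VII only, as the 447 genes with informative Gene Ontology process or function terms all lay there. Of 96 divergent pairs in which both genes had a term carried by at most 50 genes, 12 shared one (12.5%, interval 6.63 to 20.8), against 19 of 190 tandem pairs (10.0%, 6.13 to 15.2) and 9 of 91 convergent pairs (9.89%, 4.62 to 17.9). The intervals overlapped widely. Among the 12 were MAL11 with MAL12 and YGR287C with MAL13, for maltose metabolism, a term of 4 genes. RNA15 with DST1 (446 bp) shared mRNA cleavage, also a term of 4 genes. Other pairs shared only a broad term. Examples are HEM2 with YGL039W for catalytic activity (40 genes), MIG1 with HOP2 for DNA binding (42) and YGR161C-C with TIF4631 for RNA binding (45). With terms on 447 genes only, the limit of 50 lets such broad terms count.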

How the data were processed

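The annotation of L03 was the processed file used. Per the file header, the authors made it from the R64-1-1 release of S288C of the Saccharomyces Genome Database, and its deposited start and end positions count base pairs from 1. The transfer to L03 used a method not given in the sources used here. Read processing (cutadapt 1.2.1 and Bowtie 0.12.8, per the submitters' processing notes) does not enter these values. A gap belonged to the class of its length. An origin counted by its midpoint, a tRNA gene or LTR when wholly inside. Name stems are the letters before the first digit or sign. Shares have exact Clopper-Pearson intervals at 95%, a share of 0 also has the limit of 3 counts of the total, medians have order-statistic intervals, and no p-value was computed. The RefSeq table was used for names and gene order only. The rule for named pairs took the 10 shortest and 10 longest gaps, pairs with the same stem or list, the 5 gaps with the most tRNA genes and LTRs (ties by chromosome; 3 tied gaps were added), the 10 shortest with an origin, and pairs of POL1, POL2, POL3 and RNH201. The paralogous combinations, list examples, RNH202 and RNH203 were added after their values were seen. Members, lists and comparisons were chosen with earlier results of these data known. The pair builder was tested on simulated data. Alternatives changed the genes counted, the overlap rule, chromosome ends and chromosomes left out. Tools were Python 3.11.15, numpy 2.4.6, pandas 2.3.3, scipy 1.17.1 and matplotlib 3.10.9.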

Additional observations from a re-analysis of the deposited data

How the results depend on the processing

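Of 84 alternative values, 80 stayed within the 95% interval of the reported share or median, or within 1.5 times the reported count. Most of the 84 left out 1 of the 16 chromosomes and so kept most of the same gaps, which leaves little room to move. The 4 values that moved all came from other changes. With only the genes that carry evidence, and so a standard name, the median divergent gap was 632.5 bp over 1218 pairs, as removing a gene lengthens the gap around it, and the share of gaps with an LTR was 4.93%, an alternative chosen after seeing the data. With only gaps that hold no other annotated feature, the median was 488 bp over 1340 pairs. With Gene Ontology terms of at most 20 genes, 4.49% of 89 divergent pairs shared one. Leaving out each chromosome in turn gave medians of 540.5 to 549 bp and shares of 2.91 to 3.28% for origins, 5.75 to 6.27% for tRNA genes and 3.34 to 3.90% for LTRs. Promoter motifs and gap lengths from promoter windows were not run, as no genome sequence was used here. No paired analysis was possible because no library values were compared. The limits are those of an annotation: gaps run between coding sequences, so transcription starts are not placed, some reading frames of the reference table are not among the rows, and with 1 sequence there is no replicate error.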
